A study of Mus musculus with 9 samples.

Results

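The miR-379 to miR-410 cluster is a group of imprinted miRNA genes on mouse chromosome 12, and its mature miRNAs were followed here through the early steps of cortical neurogenesis. Members were chosen by name from a fixed list of 37 miRNA stems of the distal Dlk1-Dio3 domain, keeping any arm and the row with the most counts for each mature name. This gave 37 mature names of 1059 in the count table, 35 of them 5p arms and 2 of them 3p arms (a hairpin precursor yields a mature miRNA from its 5′ side, 5p, or its 3′ side, 3p). They came from 35 of the 37 stems, and miR-1193 and miR-1197 were not analysed here. Small RNA libraries had been made from 3 sorted cell populations of the lateral cortex of C57BL/6 embryos at embryonic day 14.5, with 3 libraries each. Proliferating progenitors carried neither of the R and G reporter signals, differentiating progenitors carried R and not G, and newborn neurons carried G. The labels name no reporter gene, promoter or line, give no litter or pool for a library, and state no treatment. The p-values therefore measure the spread between libraries, which may be technical.

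The cluster lies in the Dlk1-Dio3 domain, where the maternal chromosome expresses a series of long noncoding RNAs (Meg3, Rian and Mirg) and the small RNAs processed from them, while the paternal chromosome expresses protein-coding genes. miRNAs of the cluster are prominent in brain and placenta, and in neurons their transcription is known to respond to activity through the factor Mef2. A miRNA recognises its target messages mainly through its seed, bases 2 to 8 from the 5′ end, and lowers their translation and stability.

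In RefSeq annotation of GRCm38, the same assembly as the mm10 build named in the submitters' processing notes, the plus-strand members span chr12:109709060-109743795, or 34.7 kb, from Mir379 to Mir410. All 37 stems had an interval there, 35 from a hairpin and 2 (Mir544 and Mir666) from mature arms only. Mir299b is the only member on the minus strand, opposite Mir299a. Of the 36 plus-strand members, 24 lie upstream of the annotated Mirg transcript (GENCODE M21, chr12:109729764-109749460), 8 overlap an exon of Mirg and 4 lie in its introns. The 7 mature sequences on which most of the results turn are printed 5′ to 3′ from RefSeq, with the seed in capitals. They are the 6 most abundant members and miR-380-5p, which had the largest change.
miR-541-5p: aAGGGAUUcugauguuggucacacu
miR-379-5p: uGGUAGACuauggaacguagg
miR-411-5p: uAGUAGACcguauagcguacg
miR-134-5p: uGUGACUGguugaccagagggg
miR-382-5p: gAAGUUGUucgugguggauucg
miR-409-5p: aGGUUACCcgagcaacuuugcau
miR-380-5p: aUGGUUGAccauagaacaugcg
The seeds of miR-379-5p and miR-411-5p, neighbours at the 5′ end of the cluster, differ by the single substitution G2A (from miR-379-5p to miR-411-5p, counted from the 5′ end), and 14 of the 21 positions compared are the same. None of the 14 tested members with a sequence had the seed of another of the 163 tested miRNAs with a sequence, of 188 in all. On bases 2 to 7 alone, miR-329-5p matched miR-672-5p and miR-380-5p matched miR-3066-5p. miR-485-5p had no sequence in the table used.

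A short pattern recurred at the 5′ ends of the members and was noticed on reading these sequences. The pattern GGUNNNC, searched on the RNA strand within the first 10 bases, was present in 16 of 36 member names with a sequence (44.4%). These include miR-299a-5p and miR-299b-5p, which share the matched bases. The pattern was present in 12 of the 859 other miRNA names of the table (1.40%) and in 28 of all 895 (3.13%). Of 18 names from other miRNAs of the Dlk1-Dio3 domain, listed for comparison below, 2 held the pattern (11.1%). Among 5p arms only, 16 of 34 members (47.1%) and 11 of 632 others (1.74%) held it. These 8 members show how its position shifts by a base or more between them, with the matched bases in capitals; the first 5 were abundant enough to test and the last 3 were not.
miR-379-5p: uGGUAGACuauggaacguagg
miR-380-5p: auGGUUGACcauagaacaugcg
miR-329-5p: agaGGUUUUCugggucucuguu
miR-409-5p: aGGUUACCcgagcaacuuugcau
miR-412-5p: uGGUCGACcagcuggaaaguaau
miR-154-5p: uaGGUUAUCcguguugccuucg
miR-496a-5p: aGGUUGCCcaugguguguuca
miR-410-5p: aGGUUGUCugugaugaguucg
The pattern is a description of sequence and was not tested against function. From proliferating progenitors to neurons, the 5 tested members with it changed by 1.23 to 2.52 on the log2 scale (median 1.88) and the 9 without it by 0.58 to 2.17 (median 1.34), so the ranges overlapped.

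Totals of counted miRNAs ran from 821155 to 3856484 per library, with newborn neuron replicate 1 the deepest. miR-9-5p took 62.5% to 69.0% of them. Among miRNAs that mark other cells, the 2 erythroid ones (miR-451a and miR-144-5p) summed to 260 to 354 CPM (counts per 1000000 counted miRNAs, TMM-scaled) in the proliferating cells, 0.881 to 2.86 in the differentiating cells and 0 to 2.31 in the neurons, where miR-144-5p was at 0 in every library. The 5 rows of mural or mesenchymal miRNAs summed to 437 to 579, 39.99 to 43.4 and 17.7 to 36.3 CPM, nearly all of it miR-143-3p, and the 5 haematopoietic ones to 47.1 to 60.3, 20.7 to 37.0 and 8.44 to 9.01 CPM. The 3 endothelial rows summed to 18.4 to 26.2, 11.4 to 12.3 and 5.28 to 12.3 CPM, all of it miR-126a-5p. miR-214-5p was at 0 in every library, and miR-142a-5p, miR-150-5p and miR-223-5p were at 0 in neurons. The part these cells have in the lower cluster levels of proliferating progenitors was not tested. Of the 6 neuronal miRNAs tested, all 5p arms, 5 were higher in neurons than in proliferating progenitors (miR-124-5p, miR-132-5p, miR-138-5p, miR-212-5p and miR-218-5p) and miR-129-5p was lower, all by edgeR at an adjusted p under 0.05. miR-132-5p, miR-138-5p and miR-212-5p had 1.52 to 2.62, 3.79 to 6.55 and 2.04 to 5.24 CPM in the proliferating cells. They passed the low-count filter, described below, only through the neuron libraries, so they had to be higher there. The neuronal list also held miR-128, which was not matched because its rows are named miR-128-1-5p and miR-128-2-5p. Means of miR-128-1-5p were 7.76, 10.5 and 8.65 CPM in proliferating progenitors, differentiating progenitors and neurons. Those of miR-128-2-5p, which likewise passed only through neurons, were 1.53, 2.42 and 23.1 CPM. In sorted cells measured in bulk, fewer cells of a type and less RNA per cell cannot be told apart.

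The cluster took a small and growing share of the counted miRNAs. In proliferating progenitors (replicates 1 to 3, the order used throughout) its members summed to 2055, 1565 and 1622 counts, which were 0.155% (95% Wilson interval 0.149 to 0.162), 0.145% (0.138 to 0.152) and 0.198% (0.188 to 0.207) of the library. In differentiating progenitors the sums were 3361, 2386 and 4126 counts, or 0.245% (0.236 to 0.253), 0.211% (0.203 to 0.219) and 0.277% (0.269 to 0.285). In neurons they were 18704, 8958 and 6614 counts, or 0.485% (0.478 to 0.492), 0.477% (0.467 to 0.487) and 0.620% (0.605 to 0.635). The 3 populations did not overlap. Their means were 0.166% ± 0.0280, 0.244% ± 0.0330 and 0.527% ± 0.0803 (SD, n = 3 each), so that the share in neurons was 2.16 times that in differentiating progenitors and 3.18 times that in proliferating progenitors. No test is given for this sum, because the members were chosen with earlier results known. Whether copies of a molecule made by PCR were separated is not given in the sources used here. The intervals reflect counting error alone.

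**Figure D1:**
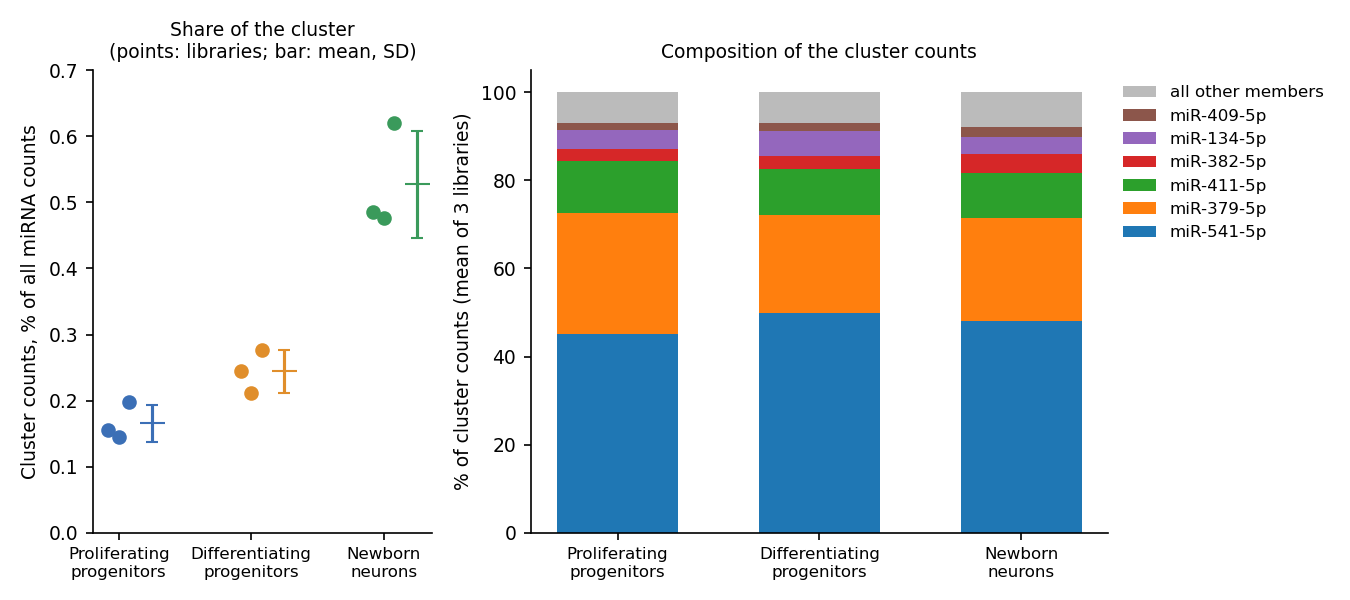
Left, cluster counts as a percentage of all miRNA counts in each library (points) with the mean and SD of 3 libraries per population; right, mean percentage of the cluster counts taken by each of the 6 most abundant members in neurons and by all others. The share lies between 0.145% and 0.198% in proliferating progenitors and between 0.477% and 0.620% in neurons, while miR-541-5p holds 45.1% to 49.99% of the cluster counts in all 3 populations.

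The composition of the cluster counts, nearly all from 5p arms, changed little while their sum grew. miR-541-5p, miR-379-5p and miR-411-5p together held 84.3% ± 1.47, 82.5% ± 1.25 and 81.6% ± 1.15 of the cluster counts (SD, n = 3 each) in proliferating progenitors, differentiating progenitors and neurons. miR-541-5p alone held 45.1% ± 0.821, 49.99% ± 0.680 and 48.1% ± 1.05, and all libraries of the proliferating progenitors (44.4% to 46.0%) lay below all those of the other populations (46.9% to 50.4%). miR-379-5p went the other way, with 27.6% ± 0.252 in the proliferating cells, 22.2% ± 2.03 in the differentiating cells and 23.3% ± 1.504 in the neurons. miR-382-5p took 2.73% ± 0.328, 3.04% ± 0.383 and 4.41% ± 1.11, where the libraries of neighbouring populations overlapped. miR-134-5p took its highest share in differentiating progenitors, 5.67% ± 0.625, against 4.29% ± 0.943 in proliferating progenitors and 3.93% ± 0.844 in neurons. These shares have no test.

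The most abundant members were higher in neurons than in either progenitor population. Levels are CPM scaled by TMM factors, which correct for differences in composition between libraries, and changes are log2 changes from edgeR's quasi-likelihood test with Benjamini-Hochberg adjustment over all 188 tested miRNAs. miR-541-5p, encoded at chr12:109742409-109742498 in an intron of Mirg, stood at 691, 736 and 956 CPM in the proliferating cells, 1181, 1058 and 1481 in the differentiating cells and 2255, 2299 and 2475 in the neurons. Each library of a later population was above every library of the earlier one. At the first step it rose by 0.65 (SE 0.16, edgeR adjusted p = 0.0103), by 0.92 at the second (SE 0.16, edgeR adjusted p = 0.000188) and by 1.56 over both (SE 0.16, edgeR adjusted p = 4.15e-07), a 2.95-fold higher level. The first step was no longer called without proliferating replicate 1 (0.55, edgeR adjusted p = 0.0769) or without differentiating replicate 3 (0.48, edgeR adjusted p = 0.0635). At rank 33 of 188 by mean level it was the most abundant member.

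miR-379-5p, which opens the cluster at chr12:109709060-109709125 and gives it its name, stood at 425, 445 and 586 CPM in the proliferating cells, 511, 435 and 719 in the differentiating cells and 1198, 1088 and 1114 in the neurons. The progenitor populations overlapped, and every neuron library was above them. Its first-step change was 0.20 (SE 0.19, edgeR adjusted p = 0.50), and it rose by 1.03 at the second (SE 0.18, edgeR adjusted p = 0.000232). miR-411-5p, its neighbour at chr12:109710175-109710256, gave 174, 192 and 249 CPM, then 262, 235 and 263 CPM, then 511, 494 and 490 CPM in neurons. A single differentiating progenitor library, replicate 2, lay within the range of the proliferating ones, and the neurons stood apart. Its first-step change was 0.31 (SE 0.17, edgeR adjusted p = 0.238) and its second 0.97 (SE 0.16, edgeR adjusted p = 0.000143), the latter a rise.

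miR-382-5p and miR-134-5p are neighbours in exons of Mirg, and both were higher in neurons than in proliferating progenitors. miR-382-5p (chr12:109733771-109733846) had 37.9, 42.9 and 65.5 CPM in the proliferating cells, 69.3, 73.1 and 81.2 in the differentiating cells and 215, 155 and 279 in the neurons. The populations did not overlap. Its change of 0.64 at the first step was not called (SE 0.26, edgeR adjusted p = 0.113), and its rise of 1.53 at the second was the largest of the tested members there (SE 0.24, edgeR adjusted p = 8.38e-05). Without proliferating replicate 3, its highest library there, the first step was called (0.89, edgeR adjusted p = 0.0446). miR-134-5p (chr12:109734139-109734209), known in neurons for limiting dendritic spine size through the kinase Limk1 and for repressing Pumilio2, had 79.6, 52.1 and 95.6 CPM in the proliferating cells, 137, 106 and 184 in the differentiating cells and 151, 227 and 196 in the neurons. The progenitor populations did not overlap, whereas the differentiating progenitors and neurons did. At the first step it rose by 0.92 (SE 0.26, edgeR adjusted p = 0.0196) and by 1.34 over both (SE 0.25, edgeR adjusted p = 0.000243). Its change of 0.42 at the second step was not called (SE 0.24, edgeR adjusted p = 0.169). Without replicate 3 of the differentiating progenitors, its highest library there, the first step was 0.67 (edgeR adjusted p = 0.109) and the second 0.71 (edgeR adjusted p = 0.0302), so the step at which it was called rests on that library. The first step was also not called without replicate 1 or without replicate 2 of the proliferating progenitors.

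A middle tier of members rose at the second step. miR-409-5p, from a Mirg intron near the 3′ end of the cluster, had 28.8, 21.5 and 32.7 CPM in the proliferating cells, 47.1, 47.6 and 31.3 in the differentiating cells and 102, 80.2 and 141 in the neurons. Its neurons stood clear of both progenitor populations, and it rose by 1.35 at the second step (SE 0.25, edgeR adjusted p = 0.000384). miR-369-5p, the next tested member but one downstream, had 21.99, 25.6 and 28.8 CPM, then 42.8, 20.3 and 46.3, then 89.3, 97.6 and 72.2 in neurons. Replicate 2 of the differentiating progenitors was below every proliferating library, the others were above, and the rise at the second step was 1.23 (SE 0.26, edgeR adjusted p = 0.00117). miR-329-5p had 9.10, 18.4 and 24.9 CPM, then 30.7, 24.7 and 14.2, then 59.4, 47.0 and 79.1, and rose by 1.40 (SE 0.32, edgeR adjusted p = 0.00203). miR-679-5p had 14.4, 16.4 and 27.5 CPM, then 22.1, 23.8 and 24.9, then 41.2, 41.2 and 46.9, and rose by 0.86 (SE 0.25, edgeR adjusted p = 0.00915). None of these 4 was called at the first step, where their changes ran from 0.33 to 0.60 with edgeR adjusted p-values of 0.183 to 0.482.

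The low-abundance members included the one with the largest change. miR-380-5p (chr12:109711803-109711863) had 7.58, 6.13 and 6.55 CPM in the proliferating cells, 17.9, 12.3 and 18.5 in the differentiating cells and 48.1, 35.9 and 33.04 in the neurons. In counts this was 10, 6 and 5, then 25, 14 and 26, then 187, 68 and 43. The populations did not overlap, and at the first step it rose by 1.25 (SE 0.35, edgeR adjusted p = 0.0196), by 1.27 at the second (SE 0.26, edgeR adjusted p = 0.000783) and by 2.52 over both (SE 0.31, edgeR adjusted p = 2.94e-06), or 5.74-fold. The call at the first step was lost in 5 of the 6 fits that left out 1 progenitor library, all but the one without differentiating replicate 2, with the highest edgeR adjusted p of 0.0782 without differentiating replicate 3. miR-485-5p, a miRNA known for repressing the synaptic vesicle protein SV2A, had 10.6, 6.13 and 7.85 CPM, then 16.4, 12.3 and 14.2, then 30.4, 43.3 and 18.4. Its populations did not overlap either, although neuron replicate 3 was close to the differentiating progenitors, and it rose by 1.11 at the second step (SE 0.31, edgeR adjusted p = 0.00776). miR-412-5p had 12.1, 8.18 and 7.85 CPM, then 15.7, 11.4 and 19.2, then 24.4, 31.7 and 43.8, a rise of 1.05 (SE 0.29, edgeR adjusted p = 0.00744).

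miR-667-5p, the least abundant tested member, had 4.55, 4.09 and 3.93 CPM in the proliferating cells, 6.43, 4.404 and 7.12 in the differentiating cells and 15.7, 12.1 and 14.6 in the neurons. Its change at the second step was 1.22 (SE 0.30, edgeR adjusted p = 0.00341), which DESeq2 did not call (1.29, DESeq2 adjusted p = 0.0876). This member passed the low-count filter, described below, only through neurons, so it had to be higher there. miR-666-5p had 7.58, 6.13 and 7.85 CPM, then 8.57, 7.93 and 12.8, then 18.5, 11.1 and 19.2. Neuron replicate 2 lay within the differentiating progenitors, and the change at the second step was 0.72 (SE 0.31, edgeR adjusted p = 0.0681), a value called in 5 of 17 alternatives, among them those without differentiating replicate 3 or without that neuron library, while the rise over both steps was called (1.17, SE 0.35, edgeR adjusted p = 0.00775; DESeq2 adjusted p = 0.0528). miR-299a-3p was the only tested member not called in any comparison. It had 15.9, 10.2 and 15.7 CPM, then 14.3, 16.7 and 9.25, then 17.8, 26.9 and 18.4, and all its neuron libraries were above all progenitor libraries. Its change over both steps was 0.58 (SE 0.31, edgeR adjusted p = 0.126). It was also the only tested 3p arm, and its row holds the same reads as that of miR-299b-3p, so that the strand of origin is not resolved.

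**Figure D2:**
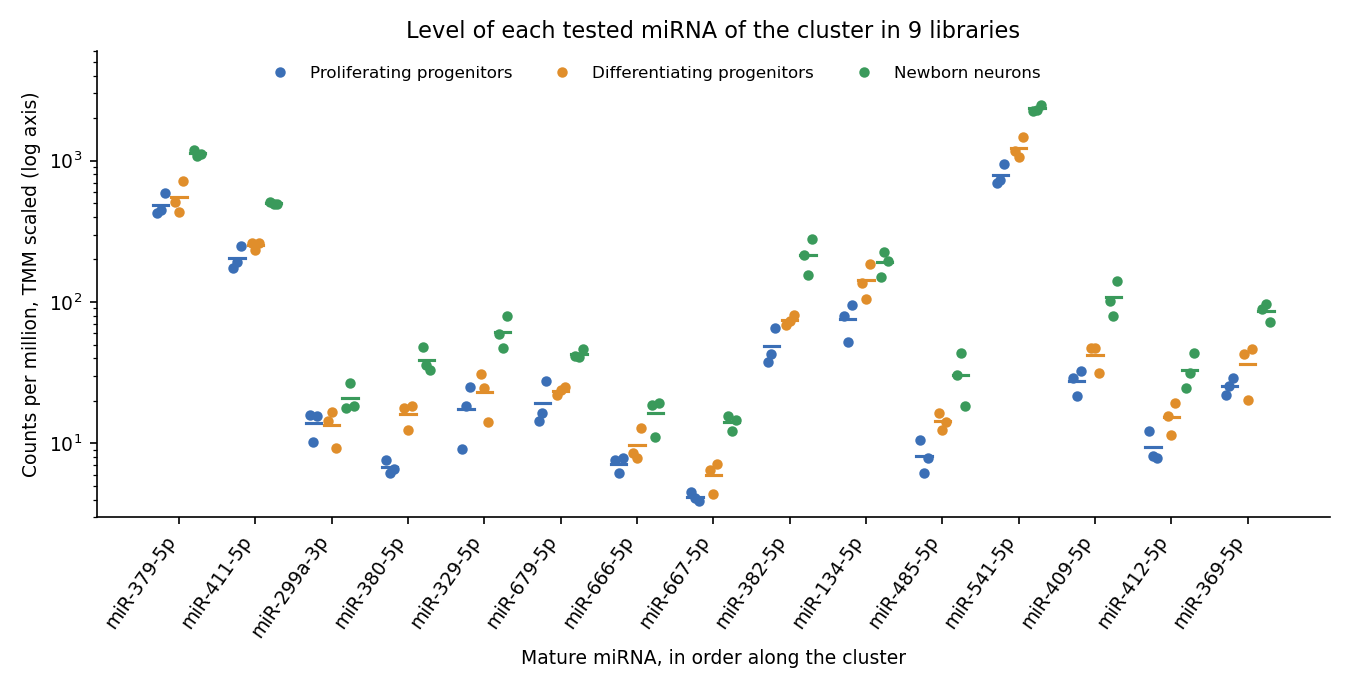
Level of each of the 15 tested members in the 9 libraries, in TMM-scaled CPM on a log axis, in order along the cluster; points are libraries, coloured by population, and short lines are means of 3. In every one of the 15 columns the 3 neuron libraries lie above the 3 proliferating progenitor libraries, from the 3.93 to 15.7 CPM range of miR-667-5p up to 2475 CPM for miR-541-5p. For miR-667-5p the low-count filter fixed this in advance.

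Between the progenitor populations few members were called. Of the 15 tested members, 3 were higher at an adjusted p under 0.05 (20%, edgeR), against 7.98% of all 188 tested miRNAs called higher, and none was lower, against 7.98% called lower. They were miR-541-5p, miR-134-5p and miR-380-5p, and DESeq2 called 2 of the 15, without miR-380-5p (adjusted p = 0.0642). No member was lower even at an unadjusted p under 0.05, by edgeR, and DESeq2 called none lower. Of the 15, 14 had a positive change with a median of 0.55, where 110 of all 188 did (58.5%) with a median of 0.08. In 6 members all differentiating libraries were above all proliferating ones, or 40% of the 15, against 13.8% of all tested miRNAs. The calls depended on single libraries: without replicate 1 of the proliferating progenitors, or without replicate 3 of the differentiating progenitors, 0 of the 15 were called, and without replicate 2 of the proliferating progenitors 1 was.

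At the second step, from differentiating progenitors to neurons, most were. Of the 15, 12 were called higher (80%, edgeR), against 23.9% of all 188, and the 3 not called were miR-134-5p, miR-299a-3p and miR-666-5p. All 15 changes were positive, from 0.42 to 1.53 with a median of 1.05, where 87 of all 188 were positive with a median of -0.06. Neuron libraries lay above all differentiating ones for 13 members (86.7%), against 27.1% of all. Over both steps, 14 of the 15 were called higher (93.3%), against 29.8% of all, with changes from 0.58 to 2.52 and a median of 1.73, where the median of all was -0.05. For all 15 every neuron library was above every proliferating library, against 32.4% of all tested miRNAs, though the low-count filter fixed this for miR-667-5p. None was called lower in either comparison, against 22.3% and 26.6% of all tested miRNAs, by edgeR or by DESeq2, and none was lower at an unadjusted p under 0.05 by edgeR. Because library totals without scaling factors move the median of all tested miRNAs over both steps from -0.05 to 0.13, directions were checked under 5 scalings, and 14, 15 and 15 of the 15 were higher in the 3 comparisons under each.

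The low-count filter bears on these counts. A miRNA was tested if it reached about 7.55 CPM in 3 libraries, before TMM scaling, and a member that passed only through neurons had to be higher there. Of the 15, 10 reached that level in all 9 libraries. The remaining 5 did not: miR-380-5p, miR-412-5p, miR-485-5p and miR-666-5p reached it in 7 libraries, including 1 of the proliferating progenitors, and miR-667-5p reached it only in neurons. The lack of overlap of miR-667-5p, at the second step and over both, was therefore fixed in advance. Among the 10, 2 were called higher at the first step, 8 at the second and 9 over both, with median changes of 0.51, 1.002 and 1.45. The share called among all tested miRNAs that reached that level in all 9 libraries was not computed. These counts therefore have no matched background here.

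**Figure D3:**
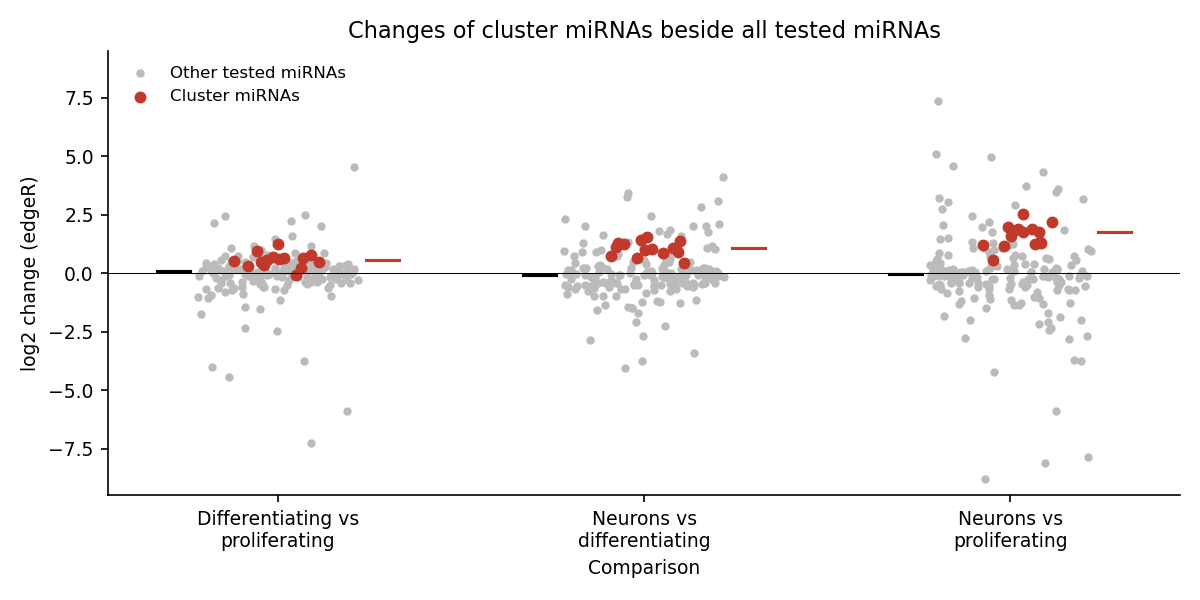
log2 change of each of the 188 tested miRNAs in the 3 comparisons, with the 15 cluster members in red and the others in grey; points are spread sideways at random, the black line at the left of each column is the median of all tested miRNAs and the red line at the right that of the members. The members lie in a narrow band, from -0.07 to 1.25, from 0.42 to 1.53 and from 0.58 to 2.52, inside the range of the other miRNAs.

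Whether the second step was larger than the first was tested directly, as the difference of both changes in the same fit. Both steps share the differentiating progenitor libraries. None of the 15 members passed at an adjusted p under 0.05 (edgeR), against 7.98% of all 188 called in either direction, and DESeq2 called none. At an unadjusted p under 0.05 there were 2, miR-379-5p with a difference of 0.83 (SE 0.32, edgeR adjusted p = 0.116) and miR-411-5p with 0.66 (SE 0.29, edgeR adjusted p = 0.157). Over all 188, 11.2% had a positive difference at that unadjusted level. The median difference of the members was 0.66 and 14 of 15 were positive, where the median of all was -0.05 and 90 of 188 were positive (47.9%). miR-134-5p had the only negative one, -0.50 (SE 0.42, edgeR adjusted p = 0.513). Without replicate 3 of the differentiating progenitors miR-379-5p was called, with a difference of 1.37 (edgeR adjusted p = 0.0111). A member called at the second step and not at the first is thus not shown to change more at the second.

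**Figure D4:**
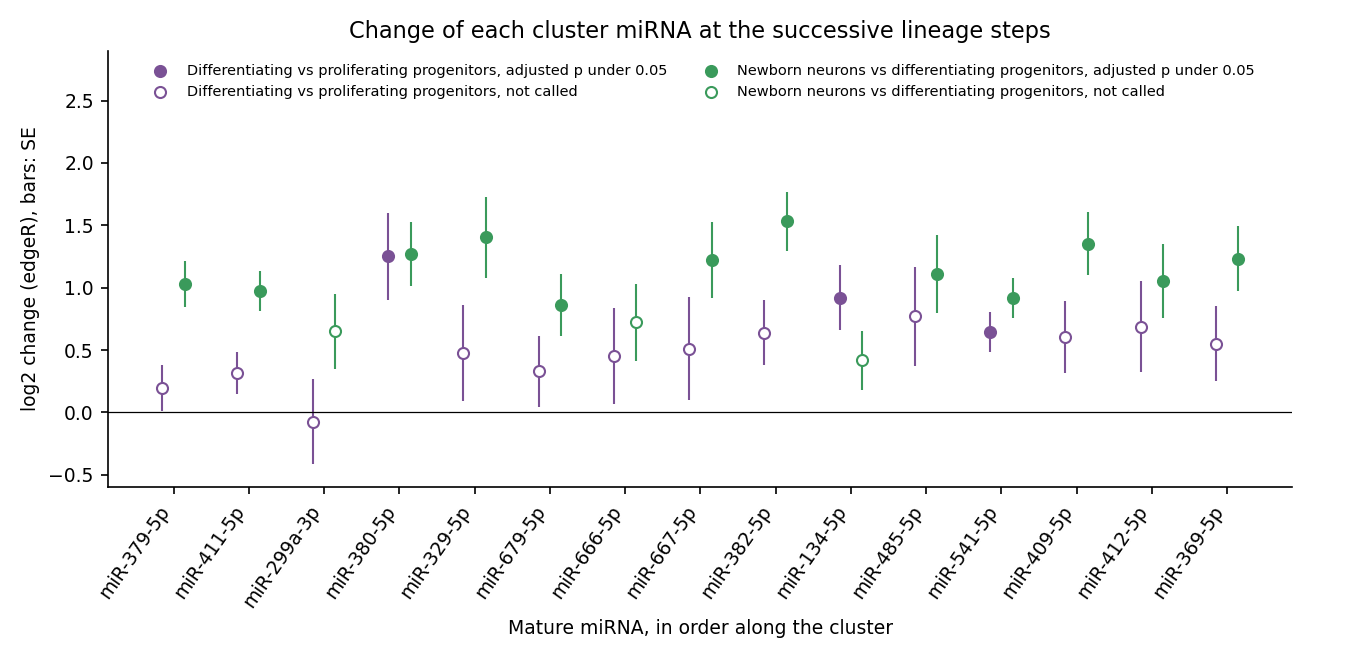
log2 change of each tested member from proliferating to differentiating progenitors (purple) and from differentiating progenitors to neurons (green), in order along the cluster; bars are SE and filled points have an edgeR adjusted p under 0.05. Filled green points number 12 and filled purple points 3, and the SE bars of both steps overlap for several members, among them miR-380-5p and miR-485-5p.

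Changes were also set against position along the cluster, as a description. The 8 tested members upstream of Mirg had changes over both steps from 0.58 to 2.52 (median 1.26) and the 7 within it from 1.34 to 2.17 (median 1.78). At the first step the 7 within Mirg ran from 0.55 to 0.92 (median 0.65) and the 8 upstream from -0.07 to 1.25 (median 0.39), with miR-299a-3p lowest and miR-380-5p, the next tested member downstream, highest. The 15 members share libraries and lie in the same cluster, so they are not independent. Whether they share a transcript was not tested. Across them, the first-step change correlated with distance along the cluster at Pearson 0.40 and Spearman 0.59. The second-step change did so at 0.16 and 0.21, and the change over both steps at 0.36 and 0.39. The change over both steps correlated with mean level at Pearson -0.10 (log2 CPM) and Spearman 0.08. No member between miR-667 and miR-382 was tested. That stretch holds the hairpins of the miR-376 group, miR-300, miR-381, miR-487b and miR-539, which are represented in the table by their 5p arms.

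**Figure D5:**
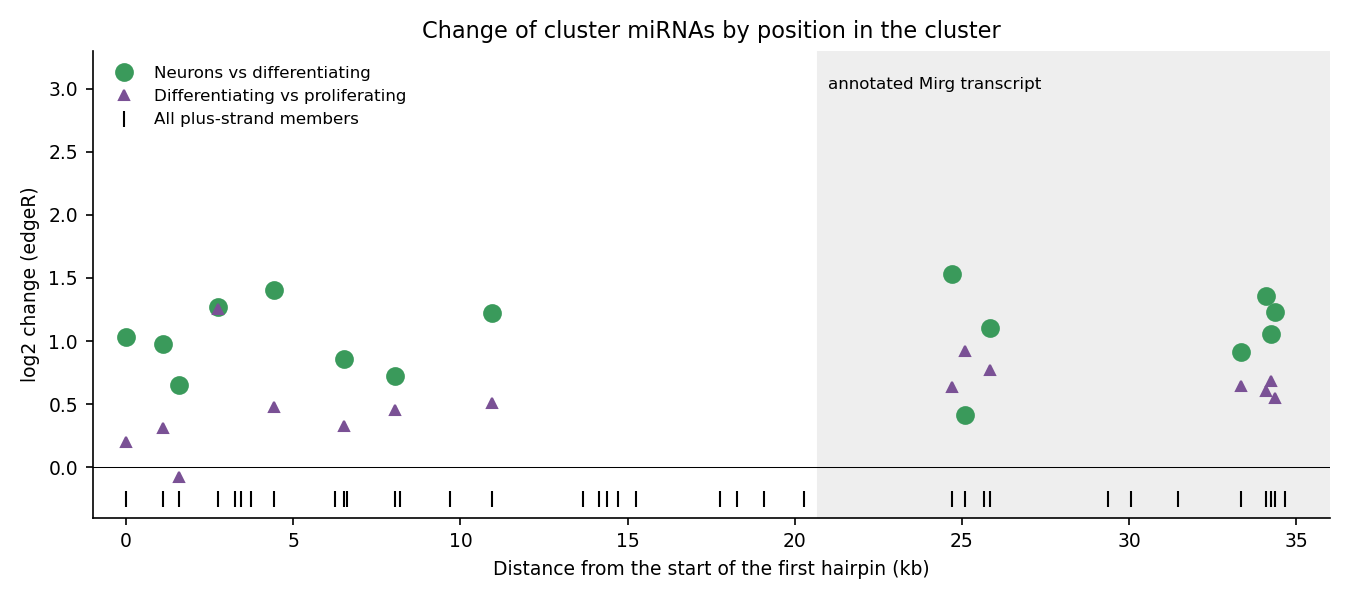
log2 change of the 15 tested members against the distance of their hairpin (miR-666: mature arms) from the start of the first hairpin, in kb, for both lineage steps; ticks at the bottom mark all plus-strand members and the shaded area the annotated Mirg transcript. Circles (second step) lie above triangles (first step) at all positions except that of miR-134-5p, where 0.92 was reached at the first step and 0.42 at the second, and that of miR-380-5p, where both nearly coincide.

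The other members were too rare to test. Counts over the 9 libraries summed to 85 for miR-376a-5p, 84 for miR-410-5p, 42 for miR-154-5p, 34 for miR-539-5p, 22 for miR-299a-5p, 21 for miR-300-5p, 19 for miR-377-5p, 16 for miR-323-5p and 10 for miR-376b-5p, and the row of miR-299b-5p repeated that of miR-299a-5p. A further 7 names had fewer than 10 counts, and miR-376c-5p, miR-381-5p, miR-654-5p and miR-758-5p had 0 in every library, which allows up to 3 counts, or 0.778 to 3.65 CPM depending on the library. For several of these hairpins, such as miR-381, miR-410 and miR-495, the 3p arm is known as the main product, and those arms were not analysed here. miR-376a-5p counts were 1, 3 and 0 in the proliferating cells, 7, 4 and 3 in the differentiating cells and 29, 26 and 12 in the neurons. With no filter on low counts it was called higher in neurons, by 1.49 relative to differentiating progenitors (SE 0.46, edgeR adjusted p = 0.00972) and by 2.87 relative to proliferating progenitors (SE 0.61, edgeR adjusted p = 2.58e-05). It was the only member added by that fit. miR-410-5p, with 7, 4 and 0, then 9, 4 and 5, then 29, 18 and 8 counts, changed there by 1.14 over both steps (SE 0.50, edgeR adjusted p = 0.0956).

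Both arms had a row for miR-299a and for miR-299b, and the rows of both precursors held the same reads. The 5p arm had 3, 0 and 0 counts in the proliferating cells, 0, 1 and 1 in the differentiating cells and 12, 0 and 5 in the neurons. The 3p arm had 21, 10 and 12, then 20, 19 and 13, then 69, 51 and 24 counts. The 5p reads were too few and too uneven between libraries to compare arm use.

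Other miRNAs of the same imprinted domain were listed for comparison, without looking up their positions. The 22 stems listed gave 18 mature names, of which 7 were tested. None of the 7 was called higher at the first step (median change 0.26), 6 were at the second (median 1.27) and 5 over both (median 1.33), and none was called lower by edgeR. Over all 188 tested miRNAs, 7.98%, 23.9% and 29.8% were called higher, with medians of 0.08, -0.06 and -0.05. The low-count filter bears on the 7 as well. miR-370-5p had 2.14 to 5.70 CPM in the progenitors and 7.91 to 12.3 CPM in the neurons, so it passed only through neurons. A miRNA that passed in this way had to be higher in neurons. Means of miR-673-5p were 5.83, 4.39 and 11.2 CPM in proliferating progenitors, differentiating progenitors and neurons. Both were among the 6 called at the second step. miR-434-5p, from the strand opposite the Rtl1 gene, rose by 1.59 at the second step (SE 0.20, edgeR adjusted p = 1.71e-05) and miR-127-5p, also antisense to Rtl1, by 1.68 (SE 0.28, edgeR adjusted p = 0.000143). miR-431-5p was not called there (0.73, SE 0.39, edgeR adjusted p = 0.137). These 7 and the 15 members of the miR-379 to miR-410 cluster were measured in the same libraries, and a difference between both groups was not tested.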

How the data were processed

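The authors deposited 1 table of whole-number read counts per mature miRNA, with 1 column for each of 9 libraries. The submitters' processing notes name bcl2fastq 1.8.2, DESeq2 and mm10; the aligner, counting tool and miRNA release are not given in the sources used here. The table had 1433 rows, of which 222 without a database accession were left out. For each mature name the row with the largest total was kept, and near-identical names were merged (a total of 50 or more and a difference of no more than 2%), which left 1052 miRNAs, 188 of them tested. Library totals are totals of these rows, not sequencing depth. Sums over the cluster count the repeated miR-299b-5p row once.

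edgeR 4.0.16 in R 4.3.3 was used with filterByExpr by population, TMM, glmQLFit and glmQLFTest on all 9 libraries, without covariate, and Benjamini-Hochberg adjustment over 188 miRNAs at 0.05. Each SE is the size of the log2 change over the root of its F statistic. The edgeR steps were tried on simulated counts, for the comparison of neurons with proliferating progenitors only. DESeq2 1.42.0 was an alternative, beside other scalings, no filter, no merging, pairwise fits, a replicate block and leaving out each library. Every tested member was named; of the untested ones, those with at least 10 counts. The members and lists were chosen with earlier results of these data known.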

Additional observations from a re-analysis of the deposited data

How the results depend on the processing

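With the replicate block the members called higher numbered 3, 13 and 14 in the first, second and overall comparison, against 3, 12 and 14 without it. The added call was miR-666-5p at the second step (0.75, edgeR adjusted p = 0.0312), and miR-380-5p had a difference between steps of -0.0065 in place of 0.02. Of 9 same-numbered pairs, 4 had deviations that correlated above 0.1 (range -0.07 to 0.25, mean 0.08, against -0.04 for different numbers). The own number was the best match in 10 of 18 cases. The cluster share was lowest in replicate 2 and highest in replicate 3 of every population. Because the labels state no pairing, the main fit did not treat the libraries as pairs, and whether they were paired is not settled. Leaving out 1 library at a time gave 0 to 3, 13 to 14 and 14 to 15 members, no member lower, 0 to 1 members for the difference between steps, 18 to 37, 74 to 92 and 99 to 114 miRNAs over the whole table, and cluster shares of 0.150% to 0.176%, 0.228% to 0.261% and 0.481% to 0.552%. Among the 15 members alone these were 0 to 3, 12 to 14 and 14, the added member being miR-376a-5p, which passed the looser filter of those fits. The other alternatives gave 2 to 3, 11 to 13 and 14 to 15 members, miR-376a-5p included where it was tested; DESeq2 called 2, 11 and 13 of the 15. TMM factors without the members and RLE size factors also called miR-666-5p at the second step (edgeR adjusted p = 0.0355 and 0.0489). Without miR-9-5p in the total the cluster shares were 0.510%, 0.676% and 1.51%, and without miR-541-5p 0.0910%, 0.122% and 0.273%, as both choices do by construction. Signs turned only for values that were not called. Across all 17 alternatives, miR-299a-3p at the first step ranged from -0.25 to 0.12 (0.06 without proliferating replicate 1, 0.12 without differentiating replicate 3) and miR-379-5p there from -0.046 to 0.36 (lowest without differentiating replicate 3). Across the 13 alternatives that gave it, the difference between steps ranged from -0.84 to 0.041 for miR-134-5p (highest without differentiating replicate 3) and from -0.28 to 0.31 for miR-380-5p (-0.09 without proliferating replicate 1, -0.28 without differentiating replicate 2, -0.19 without neuron replicate 1). DESeq2 for the difference between steps was chosen after seeing the data. Low counts limit the rarest members.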
